A study of Mus musculus with 12 samples.

Results

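The axonemal dynein and motility genes were taken as every gene whose array probe carries an accession that RefSeq (assembly GRCm38.p6) gives a symbol starting with Dnah, Dnaaf, Dnali, Rsph or Tekt, or one of 33 listed symbols. The rule found 41 genes on 56 of the 39429 probes. Of the 33 listed genes 30 had a probe, Tekt5, Ccdc40 and Armc4 had no matched probe, and 11 further genes came in through the first letters of their symbol alone. A filter on low signal kept a probe if some group had it well above background on each of its 3 arrays. It left 39 of the 41 genes and 52 of the 56 probes, out of 25019 genes and 30520 probes. Dnah5 and Dnah9, both heavy chains of the outer arm, did not pass it. No member spot was saturated.

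The genes were measured in RNA from 4 groups of 3 arrays: germ cell and Sertoli cell fractions, prepared from the testes of male C57BL/6J mice of 2 genotypes. The knockout mice (120, 86 and 72) lack TAp73, the form of the transcription factor p73 with its transactivation domain. The control mice (99, 73 and 74) are wildtype by their source name, although the sample titles call mice 73 and 74 het and only mouse 99 WT. The ages were 4 months for mouse 120, 5 months for mouse 99 and 8 months for the rest. The labels do not describe the knockout allele. Each mouse gave 1 array per fraction, so the 12 arrays hold 6 animals, and both fractions of an animal are tied to each other. The 3 slides each carried 1 pair of mice, knockout and control, with both their fractions. Slide 1 had the younger mice 120 and 99, slide 2 mice 86 and 73, and slide 3 mice 72 and 74. The study's stated subject is TAp73 in the adhesion and maturation of germ cells, and the comparisons here ask how the genes of the sperm tail's motor differ between genotypes and between fractions.

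The axoneme is the bundle of microtubule doublets around a central pair that drives a motile cilium or the tail of a sperm. Dynein heavy chains in the outer and inner arms pull on the neighbouring doublet, intermediate and light chains hold the arms together and dock them, assembly factors build the arms in the cytoplasm, and nexin links, radial spokes and the central pair turn the pull into a bend. Tektins run as filaments inside the doublets, and in the testis the genes of this machine are switched on as germ cells pass through meiosis and become spermatids.

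Levels are log2 of the scanner's processed signal minus the array's 75th percentile, so a level of 0 is the 75th percentile of that array's probes. A difference is one of log2 levels, and the value after ± is its standard error (SE) in a limma fit to all 12 arrays, and a call is an adjusted p (Benjamini-Hochberg over the 25019 genes) under 0.05. A probe's signal depends on its sequence, so the level of 1 gene is not set against the level of another. The 75th percentile of the signal was lowest on the control Sertoli array of mouse 74, at 1355 against 2864 to 5350 on the other arrays. On that array the member probes that were not well above background had a median level of -7.62, and on the other Sertoli arrays it lay between -9.12 and -8.75. The Trp73 probe did not separate the genotypes: its level was -2.35 ± 0.44 (SD, n = 3) in knockout and -3.35 ± 0.83 in control germ cells (limma, adjusted p = 0.753). Its position relative to the removed part of the gene is not given in the sources used here, so it does not check the labels.

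The promoters of the members are shown because 1 short motif recurs in them near the start site. RefSeq windows from 250 bases before to 50 bases after the start site were at hand for 38 of the 41 genes, 42 windows in all. The motif GTTGCC, the core letters of the X-box that RFX factors of ciliated cells and spermatids bind, was searched on both strands. It stood in 18 of the 42 member windows (42.9%), those of 17 genes, and in 12.5% of all 32851 windows of the same length. Within the stretch from 60 bases before to 50 after the start site, 16 of the 42 windows (38.1%) held it, against 5.18% of all windows. This shorter stretch was not part of the planned counts, and its contrast has no test. A longer stretch of the X-box that begins with GTTGCC was in 0 of the 42 windows, against 0.563% of all. The stretches below lie before the start site, run 5′ to 3′ on the gene's strand, and carry GTTGCC or its reverse complement GGCAAC in capitals, except for Armc3, whose stretch holds neither, and Spag6l, where the capitals mark TGACGTCA.
Spag16, chr1:69826820-69826969, plus strand: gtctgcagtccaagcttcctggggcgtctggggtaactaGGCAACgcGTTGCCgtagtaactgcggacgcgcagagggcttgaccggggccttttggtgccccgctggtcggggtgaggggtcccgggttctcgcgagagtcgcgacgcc
Tekt1, chr11:72361883-72362032, minus strand: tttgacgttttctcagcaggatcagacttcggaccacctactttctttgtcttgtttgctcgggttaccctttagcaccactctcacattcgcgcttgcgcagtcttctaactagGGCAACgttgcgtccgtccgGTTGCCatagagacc
Drc1, chr5:30281243-30281392, plus strand: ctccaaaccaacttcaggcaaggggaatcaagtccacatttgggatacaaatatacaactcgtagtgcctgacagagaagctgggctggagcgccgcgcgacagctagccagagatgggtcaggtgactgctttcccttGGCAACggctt
Dnah10, chr5:124724935-124725084, plus strand: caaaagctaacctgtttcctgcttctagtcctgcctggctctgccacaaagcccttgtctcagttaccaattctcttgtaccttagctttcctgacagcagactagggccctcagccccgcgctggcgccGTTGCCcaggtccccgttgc
Dnaaf6, chr1:31222689-31222838, plus strand: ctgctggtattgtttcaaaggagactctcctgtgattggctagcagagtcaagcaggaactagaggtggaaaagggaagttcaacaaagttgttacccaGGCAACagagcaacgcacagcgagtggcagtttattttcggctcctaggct
Armc3, chr2:19198968-19199117, plus strand: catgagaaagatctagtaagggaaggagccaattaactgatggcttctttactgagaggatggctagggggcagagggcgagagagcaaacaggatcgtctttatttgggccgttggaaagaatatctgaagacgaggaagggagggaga
Spag6l, chr16:16829364-16829513, minus strand: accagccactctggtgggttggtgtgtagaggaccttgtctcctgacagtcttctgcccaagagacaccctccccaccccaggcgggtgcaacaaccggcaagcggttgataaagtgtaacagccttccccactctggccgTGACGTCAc

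These coordinates are in GRCm38.p6, while the array's grid names the older build mm9. In the Spag16 stretch the copies begin at positions -111 and -103 from the start site, and in the Tekt1 stretch at -35 and -15. Drc1 has its copy at -11, Dnah10 at -20 and Dnaaf6 at -51. Spag16 and Tekt1 therefore each hold the motif once on each strand. The full cAMP response element TGACGTCA, a palindrome bound by CREB and CREM, was in 2 member windows (4.76%), those of Dnah6 and Spag6l, against 1.79% of all. Its shorter core TGACG, which the full element contains, was in 6 member windows (14.3%) against 20.8% of all. A single decamer of the p53 family consensus was in 3 member windows (7.14%), those of Rsph14 and Rsph9, against 8.36% of all. A match is a description of the letters and not a bound site.

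All 39 tested members were well above background on all 6 germ arrays. Of these, 16 passed the filter through the germ groups alone, so that their germ detection and a lower Sertoli signal were in part set by the filter, and the counts that follow are a description. On the Sertoli arrays 21 of them were well above background on all 6, 7 on some and 11 on none. In control mice, 36 of the 39 were lower in the Sertoli fraction (limma, adjusted p under 0.05), while 36.6% of all tested genes were. The median difference, Sertoli minus germ, was -7.02 over the members and 0.21 over all genes. With the 11 members that were not well above background in the control Sertoli fraction set at their bound, the median was -6.19. When only genes well above background on all 12 arrays were tested, 19 of 21 members were called lower in each genotype. Under that filter 20 of the 21 members lay below 0, against 36.3% of all genes in controls and 38.1% in knockouts. The share of all genes called lower under it is not given here. With the main filter, the arrays of both fractions of control mice did not overlap for 36 members, as for 75.1% of all genes. In knockout mice, which are tested on other arrays, 36 of 39 members were again lower, against 37.1% of all genes, with a median of -6.99 against 0.09, or -6.66 with 12 members at their bound. There 37 members did not overlap, against 80.9% of all genes. In bulk RNA, fewer cells of a type and less RNA per cell cannot be told apart. The members not called in either genotype were the light chain Dnal1, the spoke head gene Rsph4a and the central pair gene Spef2.

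**Figure D1:**
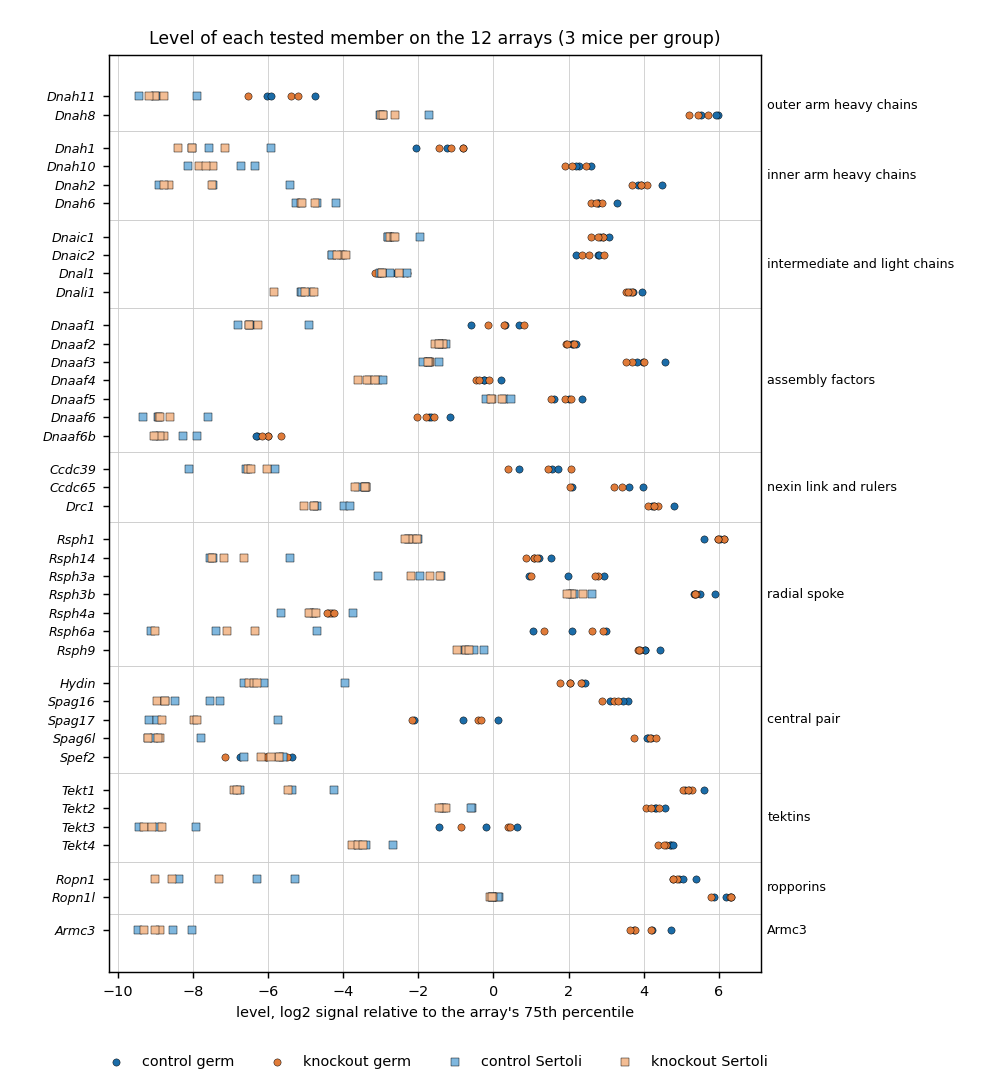
Level of each of the 39 tested members on the 12 arrays, grouped by role; the x axis is log2 signal relative to the array's 75th percentile, circles are germ arrays and squares Sertoli arrays, blue for control and orange for knockout. Circles lie to the right of the squares in all rows but those of Dnal1, Rsph4a and Spef2, and levels are to be compared within a row only.

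Among the outer arm heavy chains, Dnah8, the form known from sperm tails, read 5.98, 5.52 and 5.94 in the germ cells of control mice 99, 73 and 74. In knockout mice 120, 86 and 72 it read 5.20, 5.45 and 5.72, and in the Sertoli fraction between -3.02 and -1.72 over the 6 arrays. The germ arrays were high and the Sertoli arrays low without overlap, and the difference in controls was -8.37 ± 0.32 (SE, adjusted p = 1.45e-09), 332-fold. Dnah11 was much nearer the floor of the array. Its germ levels lay between -6.53 and -4.76, and on no Sertoli array was it well above background. It was at least 1.94-fold lower in the Sertoli fraction of controls (adjusted p = 8.52e-05) and at least 2.22-fold lower in that of knockouts (adjusted p = 7.27e-05). Here and below, such a bound sets the germ mean against the lowest signal that counted as well above background on the Sertoli arrays. An adjusted p beside it belongs to the fitted difference, whose Sertoli side is background signal, and does not test the bound. Members given such a bound passed the filter through the germ groups alone. Dnah5 was well above background on 4 of the 6 germ arrays and Dnah9 on none, and neither on any Sertoli array; these heavy chains are best known from motile cilia of airway and oviduct.

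The 4 inner arm heavy chains all fell in the Sertoli fraction, with a median difference of -8.55 in controls, or -8.27 with the 3 dim ones at their bound. Dnah2 read 4.49, 3.84 and 3.93 in control germ cells and 3.70, 4.09 and 3.92 in knockout germ cells, and was not well above background on any Sertoli array. It was at least 1470-fold lower in the Sertoli fraction of controls (adjusted p = 4.95e-08) and at least 1730-fold lower in knockouts (adjusted p = 3.1e-08). Dnah1, whose loss is a known cause of short and malformed sperm tails, lay between -2.06 and -0.81 on the germ arrays. It was at least 35.6-fold lower in the control Sertoli fraction (adjusted p = 1.59e-06). Dnah10 was at least 471-fold lower by its brightest probe (adjusted p = 2.02e-09). Its dimmer probe A_66_P113134 read -9.09, -7.11 and -4.76 in control germ cells and was at background on every Sertoli array. By that probe the difference was -1.15 ± 0.96 in controls (limma, p adjusted over probes = 0.295) and -2.93 ± 0.96 in knockouts (0.0168). With both fractions near background in controls, that probe cannot check the fold of the brightest one. Another Dnah10 probe did not pass the filter. Dnah6 was still well above background in every Sertoli array, between -5.26 and -4.19, and 203-fold below the germ cells (adjusted p = 7.81e-10).

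Of the intermediate and light chains, Dnaic1 and Dnaic2, the intermediate chains of the outer arm, differed by -5.48 ± 0.23 and -6.82 ± 0.22 in controls. Dnali1, a light intermediate chain of the inner arm, differed by -8.79 ± 0.25 (adjusted p = 2.51e-10). Dnal1, a light chain that binds the outer arm heavy chain, stood apart. It read -2.42, -2.60 and -3.11 in control germ cells and -2.76, -2.31 and -3.01 in the control Sertoli fraction, so the groups overlapped. The difference was 0.02 ± 0.29 (adjusted p = 0.956) in controls and 0.02 ± 0.29 (adjusted p = 0.957) in knockouts, with its 95% interval in controls from -0.62 to 0.66.

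The 7 assembly factors, which fold and join the arms before they enter the tail, were all called lower, with a median of -3.50 in controls, the one nearest to 0 among the roles. Among those well above background on all 12 arrays the difference ran from -1.81 ± 0.25 (adjusted p = 4.95e-05) for Dnaaf5 to -5.80 ± 0.23 (adjusted p = 1.58e-09) for Dnaaf3. Dnaaf5, a HEAT repeat protein, read 2.37, 2.01 and 1.62 in control germ cells and 0.29, 0.48 and -0.20 in the control Sertoli fraction, a 3.5-fold difference. Dnaaf6, a PIH domain factor, read -1.71, -1.17 and -1.67 in control germ cells and was not well above background in any Sertoli array, which makes it at least 32.3-fold lower there (adjusted p = 1.49e-08). Dnaaf2 and Dnaaf4, also well above background in both fractions, differed by -3.50 ± 0.15 and -3.01 ± 0.20.

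The nexin link and ruler proteins set the spacing along the doublets and join neighbouring doublets. Drc1, a subunit of the nexin-dynein regulatory complex, read 4.80, 4.21 and 4.28 in control germ cells and -4.69, -3.97 and -3.82 in the control Sertoli fraction. That is a difference of -8.59 ± 0.25 (adjusted p = 2.66e-10). Ccdc65, another subunit of that complex, differed by -6.70 ± 0.47 (adjusted p = 1.46e-07). Ccdc39, a subunit of the ruler, differed by -8.17 ± 0.57 (adjusted p = 1.44e-07) and was well above background on 1 of 3 control Sertoli arrays.

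Of the 7 radial spoke genes 6 were called lower in each genotype. Rsph6a, a spoke head protein of the sperm tail, read -9.12, -7.40 and -4.70 in the control Sertoli fraction, with 1 of these 3 arrays well above background. Its germ levels ran from 1.05 to 2.99, and the fitted difference of -9.12 ± 1.04 (adjusted p = 9.35e-06) rests in part on background signal. Rsph4a, the spoke head protein known from motile cilia, read -4.40, -4.75 and -4.31 in control germ cells and -5.67, -4.78 and -3.75 in the control Sertoli fraction, where the groups overlapped. Its difference was -0.25 ± 0.38 (adjusted p = 0.559) in controls and -0.50 ± 0.38 (adjusted p = 0.248) in knockouts. Its sign turned with the processing, to 0.33 after normexp and quantile normalization and to 0.58 in the authors' deposited table. Rsph1 differed by -8.06 ± 0.19 (adjusted p = 1.28e-10) and Rsph9 by -4.68 ± 0.19 (adjusted p = 1.93e-09). Rsph3a and Rsph3b are near copies of each other whose probes may share signal. Their differences were -4.11 ± 0.62 and -3.31 ± 0.21.

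The central pair genes Spag6l, Spag16 and Hydin were high in germ cells. Spag6l read 4.11, 4.19 and 4.08 in control germ cells, was not well above background in any Sertoli array, and was at least 1620-fold lower in the control Sertoli fraction (adjusted p = 1.7e-10). A near copy of it, Spag6, was not among the genes the rule takes. Spag16 was at least 958-fold lower (adjusted p = 1.7e-10) and Spag17 at least 48.2-fold (adjusted p = 2.37e-05). Hydin, a very large protein of the central pair, differed by -7.86 ± 0.54 (adjusted p = 1.21e-07). Spef2, a central pair protein needed for the sperm tail, did not follow. It read -6.76, -6.05 and -5.37 in control germ cells and -5.68, -6.65 and -5.60 in the control Sertoli fraction, so the groups overlapped close to background. Its difference was 0.08 ± 0.47 (adjusted p = 0.88) in controls and 0.30 ± 0.47 (adjusted p = 0.577) in knockouts.

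All 4 tektins fell in the Sertoli fraction. Tekt1 read 5.62, 5.11 and 5.20 in control germ cells and -6.75, -5.37 and -4.24 in the control Sertoli fraction, a difference of -10.76 ± 0.56 (adjusted p = 1.22e-08). Tekt2 read 4.57, 4.29 and 4.32 and then -1.37, -0.57 and -0.59, a difference of -5.24 ± 0.23 (adjusted p = 3.16e-09). Tekt3 was not well above background in any Sertoli array and at least 72.7-fold lower there (adjusted p = 8.26e-08). Tekt4 differed by -7.97 ± 0.23 (adjusted p = 2.51e-10). The ropporins Ropn1 and Ropn1l share a docking domain with the regulatory subunit of protein kinase A and sit in the fibrous sheath or the radial spokes of the tail. Ropn1 was called lower in controls (adjusted p = 2.31e-08), with 2 of 3 control Sertoli arrays well above background, and was at least 3240-fold lower in knockouts, with none. Ropn1l differed by -6.05 ± 0.19 (adjusted p = 4.38e-10). Ropn1l read 6.19, 5.88 and 6.32 in control germ cells and -0.05, 0.15 and 0.13 in the control Sertoli fraction. Armc3, an armadillo repeat protein, read 4.72, 4.21 and 3.74 and was at least 1730-fold lower in the control Sertoli fraction (adjusted p = 2.25e-10).

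**Figure D2:**
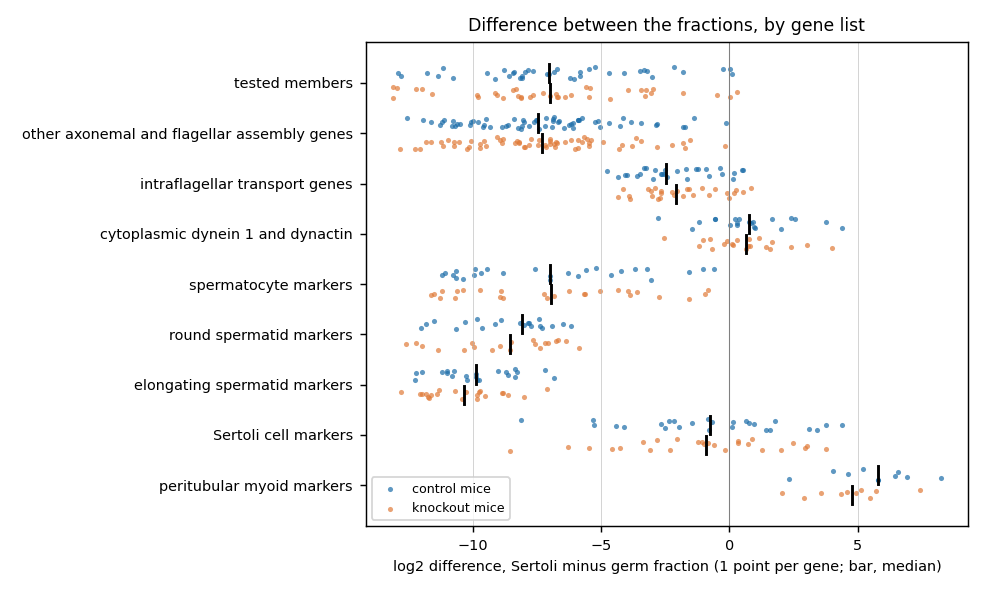
Log2 difference, Sertoli minus germ fraction, of each tested gene (1 point) of the members and of 8 other lists, with the median as a bar; blue points are control mice and orange points knockout mice. The members, with medians of -7.02 and -6.99, lie with the spermatocyte and spermatid markers, while cytoplasmic dynein and dynactin genes spread around 0.

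Genes outside the rule were taken from lists written with earlier results of these data known. Of 64 tested genes for other axonemal and tail assembly proteins, 63 were called lower in the Sertoli fraction of each genotype, with medians of -7.45 in controls and -7.29 in knockouts. Lrrc34 had the largest difference in controls (-12.56), and Cep135, a centriole protein, was the gene that was not called (-0.15 ± 0.18). Zmynd10, a partner of the assembly factors, differed by -10.76 ± 0.44, and Gas8, a subunit of the nexin-dynein regulatory complex, by -1.79 ± 0.17. Of 28 intraflagellar transport genes, 22 were called lower in controls, with a median of -2.47. Their dynein motor Dync2h1 differed by -4.00 ± 0.17 and Ift81 by -4.75 ± 0.26. The cytoplasmic dynein 1 and dynactin genes, which serve transport in every cell, went both ways: 11 of 21 were called higher in the control Sertoli fraction and 4 lower. Their heavy chain Dync1h1 differed by 0.03 ± 0.15 (adjusted p = 0.873).

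Of 17 tested regulators of cilia and spermatid genes, 14 were called lower and 2 higher in the control Sertoli fraction. Foxj1, which drives motile cilia genes, differed by -8.22 ± 0.18, Rfx3 by -5.74 ± 0.25, Rfx2 by -6.66 ± 1.09 and Crem by -5.10 ± 0.19. In knockout against control germ cells Foxj1 differed by -0.08 ± 0.18 (adjusted p = 0.997) and Rfx2 by 0.09 ± 1.09 (adjusted p = 1). Markers of the cells themselves moved with the fraction. All 26 spermatocyte, 20 round spermatid and 22 elongating spermatid markers were called lower in the control Sertoli fraction, with medians of -6.98, -8.07 and -9.87. Of 26 Sertoli cell markers 10 were called higher and 12 lower, while all 10 peritubular myoid markers were higher, with a median of 5.78. The Sertoli markers Tsx, Rhox5 and Fshr were among those lower in the fraction labelled Sertoli (-8.11, -5.28 and -5.30), and Vim and Sox9 among those higher (3.77 and 1.43). The part of these cell types in the members' differences was not tested.

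Between knockout and control germ cells no member passed the test. None of the 39 was called, against 0.22% of all genes, and the smallest adjusted p was 0.897 (limma). At an unadjusted p under 0.05 the members' count was also 0, against 7.34% of all genes. It was 1 without mouse 99 (5.81% of all genes) and 1 in 8-month mice (6.99%). Without both mice titled het, which leaves 1 control mouse, it was 5 of 40, against 16.8% of all genes. The differences, knockout minus control, ran from -0.37 to 0.33. Of the 39, 29 lay below 0, as did 54.5% of all genes, and the median was -0.17 against -0.04. For 3 members the arrays did not overlap, against 15.7% of all genes. The count below 0 moved with the processing and the mice. In the authors' deposited table it was 24 of 39, against 55.9% of all genes, with a median of -0.06 against -0.04. It was 24 of 39 without mouse 86 (50.6% of all genes) and 33 of 39 without mouse 120 (55.4%). These intervals bound what the arrays could have missed: for 20 of the 39 members the 95% interval lay within 1 log2 unit of 0 on both sides, and the widest, of Rsph6a, ran from -2.05 to 2.55. For the other 19 a larger difference lay within the interval.

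Dnaaf3, an arm assembly factor, had the smallest p of the members. It read 4.57, 3.97 and 3.81 in control and 3.69, 4.01 and 3.53 in knockout germ cells, a difference of -0.37 ± 0.23 (adjusted p = 0.897) whose groups overlapped. Rsph9, a spoke head protein, read 4.44, 4.03 and 4.03 and then 3.89, 3.84 and 3.87, so that each knockout array lay below each control array. Its difference was -0.30 ± 0.19 (adjusted p = 0.904). Tekt4 read 4.72, 4.69 and 4.79 and then 4.59, 4.37 and 4.54, again without overlap, with a difference of -0.23 ± 0.23 (adjusted p = 0.997). Ropn1 was the remaining member without overlap, at 5.39, 4.95 and 5.05 against 4.77, 4.88 and 4.78, with a difference of -0.32 ± 0.66. The other members with the smallest p did not pass either: Dnah8 (-0.36), Armc3 (-0.36), Dnaaf6b (0.26), Dnaaf4 (-0.22), Rsph3b (-0.20), Spag16 (-0.23) and Dnaaf2 (-0.12). By its dimmer probes Dnah8 went the other way, with differences of 0.69 ± 0.94 and 0.14 ± 0.66. Further probes of Dnaaf4 (-0.24 ± 0.22) and Spag16 (-0.15 ± 0.32) kept their sign.

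By role, the germ cell medians lay between -0.24 for the outer arm heavy chains and 0.11 for the radial spokes, Armc3 apart. By the brightest probe of each gene, all 5 central pair genes and 3 nexin link and ruler genes lay below 0. By the same choice 4 of 7 spoke genes lay above it, and none of all these passed the test. The spoke count depends on the probe: Rsph1 was 0.11 by its brightest probe and -0.10 by another, and Rsph3a 0.21 and -0.33. Ccdc65 was -0.34 by its brightest probe and -0.09 and 0.10 by others. Further probes of Hydin (-0.13), Spag16 (-0.15) and Spag17 (-0.47) stayed below 0. On the slides, Dnaaf3 differed by -0.88 between mice 120 and 99, by 0.05 between mice 86 and 73 and by -0.28 between mice 72 and 74. Rsph9 differed by -0.55, -0.19 and -0.16 in the same order, and Tekt4 by -0.12, -0.32 and -0.24. For Rsph9 and Tekt4, whose groups did not overlap, a difference below 0 on every slide follows from that and adds nothing to it.

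The members were not alone in lying slightly below 0 in knockout germ cells. Of the 64 other axonemal genes 56 did, with a median of -0.20, and 0 were called; the smallest adjusted p was 0.306, that of Dydc2 (-0.70 ± 0.21). Of 28 intraflagellar transport genes 25 did, with a median of -0.24, and of 22 elongating spermatid markers 20, with a median of -0.36. The 26 spermatocyte markers had a median of -0.09. Markers of other cells lay above 0: 25 of 26 Sertoli markers (median 0.48), 9 of 10 Leydig markers (1.03) and 15 of 18 macrophage and leukocyte markers (1.04). The summed level of the Sertoli markers ran from 7.22 to 7.58 on control and from 7.49 to 7.90 on knockout germ arrays. That of the elongating spermatid markers ran from 9.82 to 10.07 on control and from 9.64 to 9.86 on knockout arrays. For the Leydig markers it ran from 4.43 to 4.78 on control and from 4.65 to 5.20 on knockout arrays. For the macrophage and leukocyte markers it went against their median, at 5.55 to 5.84 on control and 5.44 to 5.52 on knockout arrays. All 10 tested Leydig markers, and at least 17 of the 18 macrophage and leukocyte markers, were well above background on each germ array. Their part in the members' differences was not tested.

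**Figure D3:**
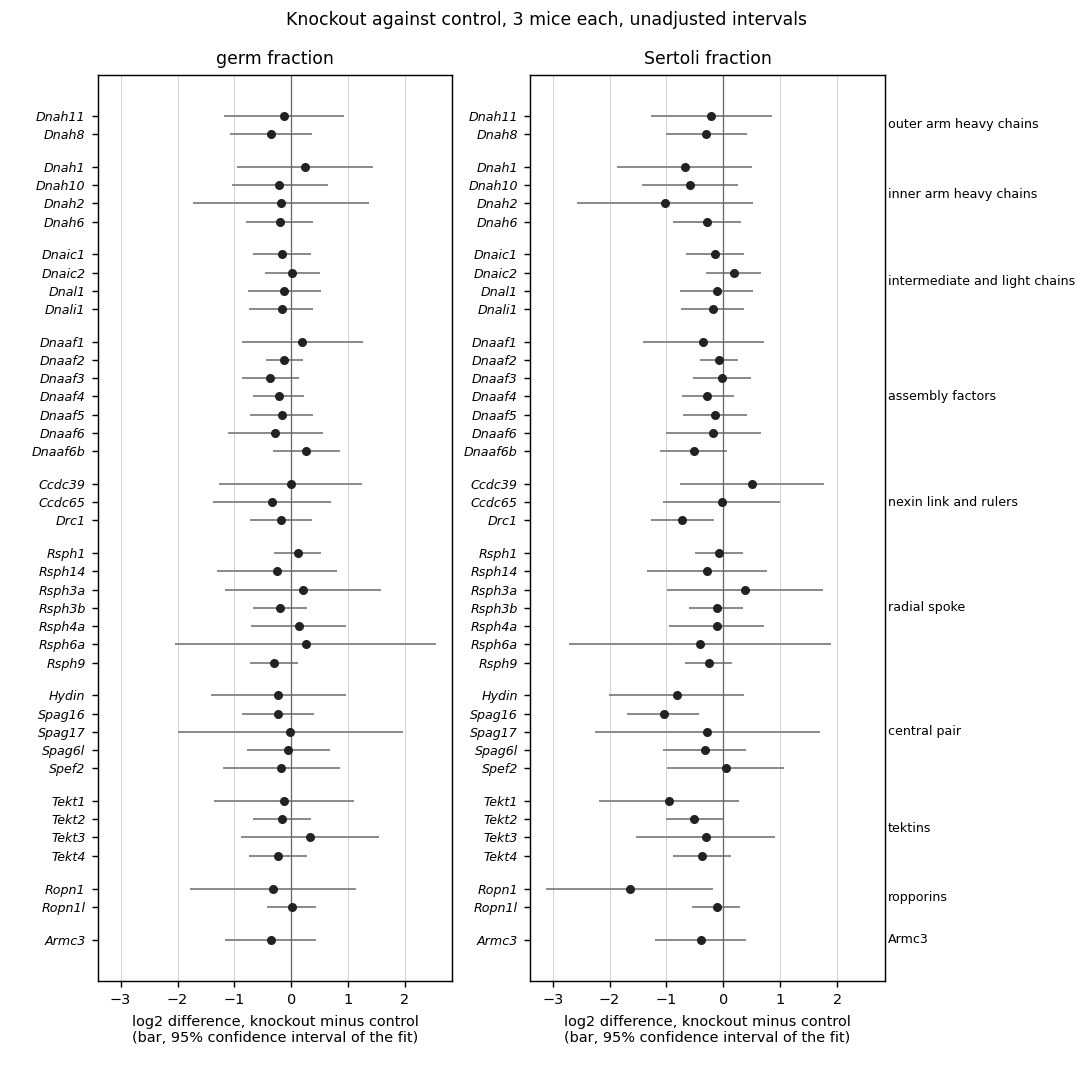
Log2 difference, knockout minus control, of each tested member with its unadjusted 95% confidence interval, in germ cells (left) and in the Sertoli fraction (right), 3 mice per genotype. In germ cells every interval crosses 0; in the Sertoli fraction those of Spag16, Drc1, Ropn1 and Tekt2 do not, and none of the 39 members passed the adjusted test in either fraction.

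In the Sertoli fraction, knockout against control, again no member was called, as 0% of all genes were. At an unadjusted p under 0.05 there were 4 members, all of them below 0, against 3.03% of all genes. Of the 39, 35 lay below 0, against 65.2% of all genes, with a median of -0.28 against -0.10. The groups did not overlap for 2 members, against 6.73% of all genes. The count below 0 rested on the control array of mouse 74: without that mouse 24 of 40 tested members lay below 0, against 48.1% of all genes, with a median of -0.06. Without mouse 99 the median was -0.54, against -0.18 over all genes. There 10 of 39 members had an unadjusted p under 0.05, against 7.48% of all genes. Without both mice titled het 13 of 40 lay below 0, against 43.9% of all genes, with a median of 0.07 against 0.03.

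The 4 members were Spag16, Drc1, Ropn1 and Tekt2. Spag16 read -8.47, -7.55 and -7.28 in controls 99, 73 and 74 and -8.96, -8.75 and -8.76 in knockouts 120, 86 and 72, with a difference of -1.05 ± 0.29 (unadjusted p = 0.00384, adjusted p = 1). None of these 6 values was well above background, so no fold is given. By the other Spag16 probe, also at background on every Sertoli array, the difference was -0.27 ± 0.32. Drc1, well above background on all 6 arrays, read -4.69, -3.97 and -3.82 and then -4.78, -5.06 and -4.78, without overlap. Its difference was -0.72 ± 0.25 (adjusted p = 1), made up of -0.09 on slide 1, -1.09 on slide 2 and -0.97 on slide 3. Ropn1 read -8.38, -6.29 and -5.28 in controls, 2 of them well above background, and -9.02, -7.32 and -8.55 in knockouts, with none. Its difference was -1.65 ± 0.66 (adjusted p = 1), with -3.27 on the slide of mouse 74. No fold is given for Ropn1, since control mouse 99 was not well above background either. Tekt2 read -1.37, -0.57 and -0.59 and then -1.33, -1.26 and -1.46, so that control mouse 99 lay within the knockouts, a difference of -0.51 ± 0.23 (adjusted p = 1).

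The other members with the smallest p were Dnaaf6b (-0.52), Tekt1 (-0.96), Tekt4 (-0.38), Dnah10 (-0.59), Hydin (-0.82) and Dnah2 (-1.03). Dnaaf6b, Dnah10 and Dnah2 were not well above background on any Sertoli array, so their values here are differences of background signal. Dnah2 ranged from 1.43 on slide 1 to -3.36 on slide 3. Without both mice titled het, the sign turned for Ropn1 (0.08), Tekt2 (0.02), Tekt1 (0.34), Dnah10 (0.47) and Dnah2 (0.62). All 22 elongating spermatid markers lay below 0 in the same comparison, with a median of -0.82 and none called. Their summed level on the Sertoli arrays ran from 0.90 to 2.31 in controls and from 0.57 to 0.70 in knockouts, and their part in the members' differences was not tested.

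The interaction term asks whether the knockout difference itself differed between the fractions. None of the 39 members was called, against 0.00799% of all genes, and the smallest adjusted p was 0.999 (limma). At an unadjusted p under 0.05 the count was 0, against 4.58% of all genes. The median, Sertoli minus germ, was -0.08 over the members and -0.09 over all genes. These values moved with the mice included: without mouse 99 the count was 6 of 39 (6.07% of all genes) and the median -0.31, and in 8-month mice 6 (6.27%) and -0.26. Without mouse 74 the count was 1 of 40 (7.61%), the median 0.06 and 28 of 40 lay above 0. Without both mice titled het the count was 4 of 40 (9.39%) and the median 0.28. Dnaaf6b (-0.78 ± 0.38) and Spag16 (-0.82 ± 0.40) had the smallest p, and Ropn1 read -1.33 ± 0.93. The Sertoli side of Dnaaf6b and Spag16 is background signal on all 6 arrays, and that of Ropn1 on 4. The 4 comparisons and the interaction share arrays, so their values are not independent of each other.

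Within a genotype the germ arrays differed more for some members than the genotypes did, and 11 members had more than 1 tested probe to set this against. Dnah8 shows it. Its brightest probe, A_55_P2025675, read 5.98, 5.52 and 5.94 in control mice 99, 73 and 74 and 5.20, 5.45 and 5.72 in knockout mice 120, 86 and 72. A further Dnah8 probe, A_55_P2076064, read -2.51, -1.02 and 1.14 and then 0.68, -2.03 and 1.02. Another, A_55_P2083982, read -2.64, -1.40 and -0.29 and then -0.68, -2.69 and -0.55. By both dimmer probes mice 99 and 86 were the lowest, while the brightest probe ran from 5.20 to 5.98 without that order.

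Ccdc65 gave the same order with its probe A_66_P108434, at -4.17, -1.44 and -0.35 in controls and -0.92, -4.07 and -0.66 in knockouts. Its brightest probe, A_55_P2095603, was also lowest in mice 99 (2.09) and 86 (2.03), with the other arrays between 3.20 and 3.98. For Rsph3a the probes went opposite ways: A_51_P367563 read 0.94 and 0.99 in mice 99 and 86 and at least 1.98 elsewhere, while A_55_P2048129 read -2.00 and -2.09 there and at most -2.15 elsewhere. Both probes of Tekt1 and of Ropn1l stayed within 0.68 log2 units over the 6 germ arrays. Among the 52 member probes, 9 (17.3%) lay more than 1 log2 unit lower in both mice 99 and 86 than in each of mice 74, 120 and 72. Among the 30442 probes with a value on all 6 germ arrays it was 7.13%. This pattern was chosen after its values were seen and has no test. Mice 99 and 86 differ in genotype, age and slide.

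**Figure D4:**
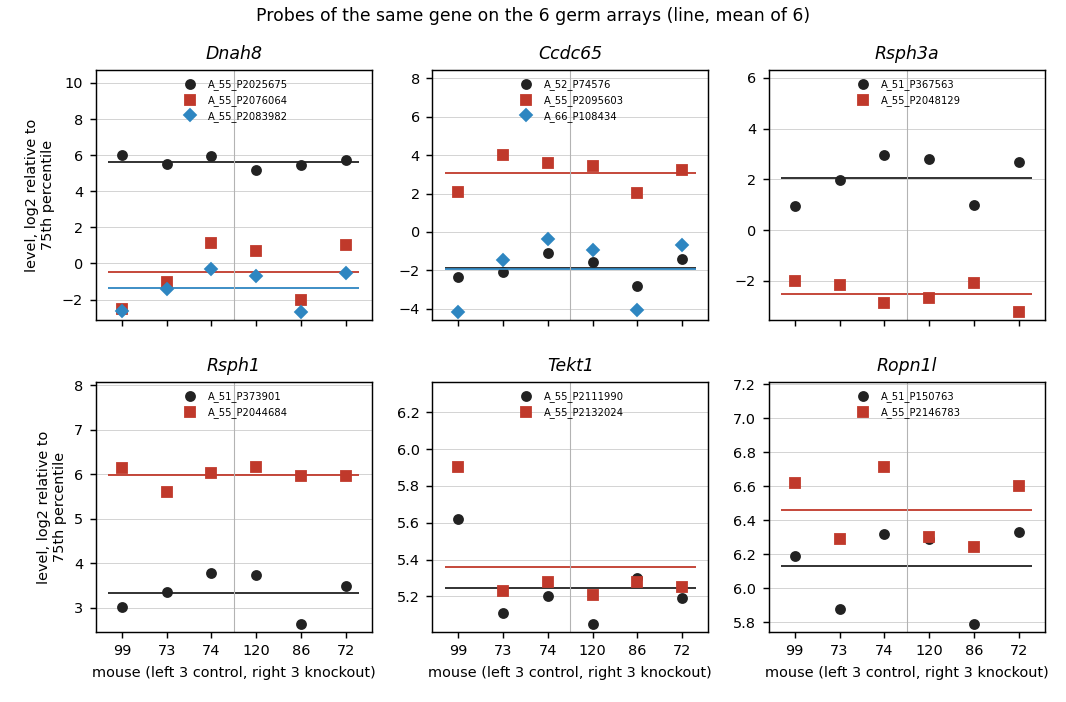
Germ cell levels of each tested probe of 6 members, 1 panel per gene; the x axis is the mouse, with 3 controls left of the line and 3 knockouts right of it, the y axis is log2 relative to the array's 75th percentile, and the horizontal lines are each probe's mean over the 6 arrays. For Dnah8 and Ccdc65 the dimmer probes are lowest in mice 99 and 86, while the Tekt1 and Ropn1l probes span at most 0.68.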

How the data were processed

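RNA of 12 samples was measured on 1-colour Agilent mouse arrays, 1 per mouse and fraction. Feature Extraction 10.7.3.1 (Agilent) made the scanner files on a grid that names mm9, per the file headers. Of the deposited intensity columns the processed signal was used, background-subtracted and detrended within the array per the file headers and not normalized between arrays. A log2 table that the authors deposited has columns that all have a median of 8.29 and keep the order of the processed signal (Spearman's rho at least 0.9999), with normalization steps not given in the sources used here.

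Here control spots and outlier spots were dropped, spots of a probe averaged, log2 taken and each array's 75th percentile subtracted. Accessions matched a RefSeq symbol for 26055 of 39429 probes. A gene was represented by its probe of highest mean signal. Differences between 4 group means were fitted with limma 3.58.1 in R 4.3.3. This fit was tried on simulated data with changes set in knockout germ cells. The steps before the fit and the other comparisons were not simulated. Groups follow the source names. Nothing says that a mouse's fractions were handled separately beyond the isolation. The p-values of the main fit rest on a spread per gene that is pooled over the 4 groups of 3 mice. Limma also draws that spread towards the spread of all genes. The main fit leaves out the pairing of a mouse's fractions, which the paired fit given below takes in. The number of arrays limits the precision. An "at least" fold takes, per dim array, the higher of the probe's signal and the lowest signal well above background.

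Both fractions come from the same animal, so mouse numbers pair the arrays; deviations from the group means correlated between a mouse's fractions with r from -0.162 (mouse 99) to 0.462 (mouse 74). Alternatives were another normalization, scaling, filter, probe choice, a slide block, a replicate block and samples left out. The members, gene lists and alternatives were chosen with earlier results of these data known. Members named in a knockout comparison or the interaction are the 10 of smallest p. In the fraction comparisons they are the extremes of each role and those against the trend, beside others given as values.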

Additional observations from a re-analysis of the deposited data

How the results depend on the processing

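The 36 members called lower in the Sertoli fraction numbered 35 to 38 in controls and 36 to 38 in knockouts under each alternative but the stricter filter. Keeping only probes well above background on all arrays left 21 members, of which 19 were called in controls and 19 in knockouts. Their medians were -5.80 and -5.58, against 0.64 and 0.51 over all genes under the same filter. The median in controls was -5.86 with normexp (on median signals, the columns at hand) and quantile normalization and -6.35 with median scaling. In knockouts it was -5.75 and -6.14, and -6.53 in the deposited table. Median scaling also moved the median of all genes in controls from 0.21 to 0.88, and the share of all genes below 0 from 46.7% to 37.8%. The share of all genes called lower under each alternative is not given here, so the members' counts of calls under the alternatives lack that comparison. The paired fit with mouse as a replicate block called 36 members in each fraction comparison and 0 in the others, and changed no call. No alternative called a member between genotypes or in the interaction.

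Signs turned only where no call was made. For Dnal1 the control difference was -0.34 without the mice titled het and ran from -0.12 to 0.20 with each mouse left out. In knockouts it was -0.07 in 8-month mice, with a range from -0.07 to 0.13. For Rsph4a the control difference was 0.33 (normexp and quantile), 0.42 (median scaling), 0.58 (deposited table) and 0.26 (8-month mice), and ran from -0.65 to 0.26 with each mouse left out. In knockouts it was 0.24, 0.35 and 0.54 under the first 3 of these. For Spef2 it was -0.41 in 8-month control mice and ran from -0.41 to 0.42 in controls and from -0.03 to 0.66 in knockouts with each mouse left out.

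Without the mice titled het, which leaves 1 control mouse assumed to vary like the other groups, the knockout difference in the Sertoli fraction was 0.08 for Ropn1, 0.02 for Tekt2, 0.34 for Tekt1, 0.00 for Tekt4, 0.47 for Dnah10 and 0.62 for Dnah2. The interaction was then 0.09 for Spag16, 0.36 for Drc1, 0.66 for Ropn1, 0.36 for Tekt2, 0.79 for Tekt1 and 1.20 for Dnah2, which ran from -1.87 to 0.16 with each mouse left out. Dnah10, Dnah2 and Spag16 are at background on every Sertoli array. Dnaaf4 in germ cells was 0.00 in 8-month mice. Beyond the samples or probes that each alternative leaves out, the cause was not tested. Signal over background limits the Sertoli fraction most, where 11 of 39 members were not well above background on any array.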
